A study of Mus musculus with 10 samples.

Results

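Of 3126 alternative splicing events measured in 10 mouse tissues, 75 lay on transcripts whose level was higher in both liver and kidney than in any of the other 8 tissues. The events were chosen by level alone. The level was the mean of the C1 and C2 probes, which lie in the exons on either side of an alternative exon. The lower of the liver and kidney levels had to exceed the highest other tissue by 0.6 units or more, and liver was not to exceed kidney by 1.0 or more. The 75 events are 2.40% of all events, a share that the rule itself sets. A further 13 events met the margin but were left out because liver exceeded kidney by 1.0 or more, so 88 events met the margin alone.

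The samples were liver and kidney, and, as the tissues they were set against, brain, heart, intestine, lung, muscle, salivary, spleen and testis. Each was 1 sample of total RNA pooled from mice of the outbred CD1 strain, with no treatment named in the labels, which also give no age, sex or number of animals. The array carried 7 probes for each event. The C1, A and C2 probes sat in the exon bodies (A is the alternative exon). The C1:A and A:C2 probes crossed the junctions made when the exon is included, and the C1:C2 probe crossed the junction made when it is skipped. The seventh kind, INT, was read as a guide to dim signal, because its target is not stated in the labels or the table. Values below are in units of the deposited scale after each array was centred on its own median, so that 0 is the median probe of an array. The base of the scale is not stated, so differences are not given as folds. No difference was tested, because each tissue has 1 sample, and precision is limited by how few arrays there are. In whole-tissue RNA, a transcript carried by fewer cells and a transcript at less RNA per cell cannot be told apart.

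Liver hepatocytes and the proximal tubule cells of the kidney share much of their metabolism. Both make glucose from small precursors, break down amino acids, take up organic anions and modify drugs and toxins, and both rely on transcription factors of the hepatocyte nuclear factor families. A transcript that both tissues use need not be spliced alike in them, because exon inclusion is set by RNA-binding proteins that can differ between tissues. The table names its events by number and pairs none with a gene, so the events are described by their probes, and neither gene roles nor tissue markers could be read.

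The level of the 75 events had a median of 2.85 units in liver and 2.91 in kidney, against 1.07 in intestine, 0.83 in heart, 0.64 in spleen, 0.61 in lung, 0.51 in testis, 0.47 in muscle, 0.46 in salivary and 0.37 in brain. Over all 3126 events the tissue medians were alike, at 0.46 in liver and 0.50 in kidney and from 0.34 in muscle to 0.51 in brain among the others. The margin over the highest other tissue had a median of 0.89 and ran up to 3.53. It was 1 unit or more in 34 events and 2 units or more in 6. At the edge of the rule, Ben416 and Ben3831 were just inside with margins of 0.61 and 0.63, and Ben3776 and Ben1913 were just outside with 0.5998 and 0.592.

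**Figure D1:**
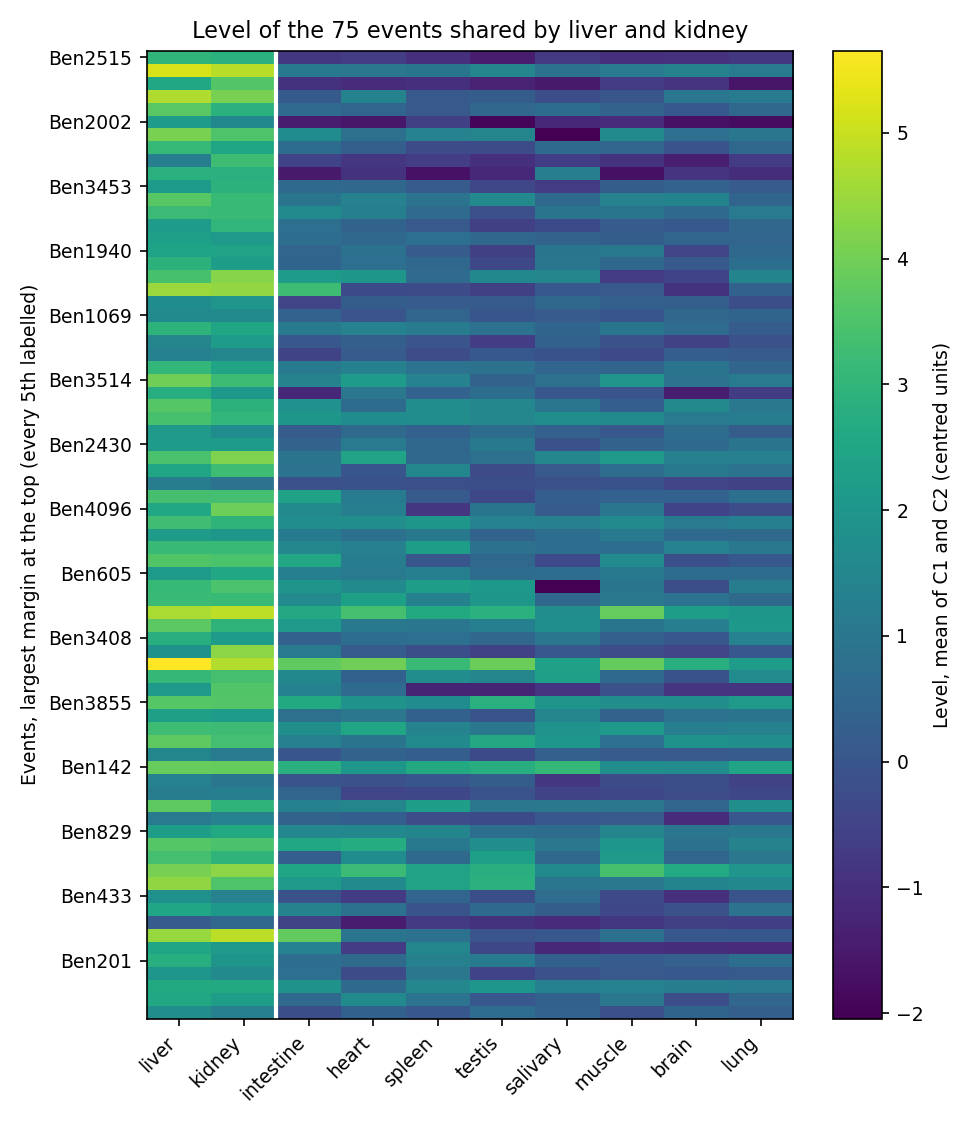
Level (mean of C1 and C2, centred units, colour) of each of the 75 events (rows, ordered by margin) in liver, kidney and the other 8 tissues (columns), 1 sample each. The liver and kidney columns are the brightest in every row by the rule, and intestine is the next highest tissue in 23 rows. The darkest salivary cells are Ben1145 and Ben883, whose 7 probes are all listed at 0 there.

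The levels of liver and kidney stood near each other in most of the events, which the rule favours. Liver was the higher in 48 events and kidney in 27, with a median difference, liver minus kidney, of 0.11 units, and in 48 events the difference was 0.5 units or less either way. The share of all events within that limit was not counted. The rule left out events high in liver alone or in kidney alone. It also capped the excess of liver but not that of kidney, and 5 events were higher in kidney by 1 unit or more. The largest excess was in Ben1655, with a level of 1.91 in liver and 4.32 in kidney, against -0.53 to 1.10 in the other tissues. Ben175 followed, at a level of 1.25 in liver and 3.28 in kidney, against -1.40 to -0.48 in the others. Its A probe did not follow the level, at 2.64 in liver and 3.94 in kidney, against 2.25 to 4.13 in the others, with intestine the highest.

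The tissue that came next after liver and kidney was intestine in 23 of the 75 events, heart in 15, spleen in 10, testis in 9, salivary in 9, muscle in 5, brain in 3 and lung in 1. Over all events the highest of these 8 tissues was most often testis, in 830 events or 26.6%, and intestine in 375 or 12.0%. Among the shared events testis made up 12.0% and intestine 30.7%. The next tissue is read from the levels that the rule used, and the rule left out events highest in another tissue. The contrast with all events may therefore follow in part from the rule, and the size of that part was not tested. In 26 of the 75 events the next tissue did not exceed its own 95th percentile of INT probes, which lay between 0.70 and 1.36 units in the 10 tissues. Differences from such dim readings are not exact sizes. No flank probe of the 75 events was listed at 0 in liver or kidney, and 11 of the 1200 flank values in the other tissues were.

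The same margin of 0.6 units was applied to every pair of tissues, without the clause on liver over kidney. Liver and kidney had the most events of the 45 pairs, 88, followed by brain and testis with 38 and liver and testis with 36. The median pair had 4. The pair of heart and muscle had 20 events, and lung and salivary had 3. When the arrays were first brought to a common distribution by quantile normalization, liver and kidney had 43 events and brain and testis 39, still the most of the 45 pairs but closer together. Liver and testis had 11, and spleen and testis, with 24 under both scalings, came next. Under that normalization the rule itself gave 40 events, of which 32 were among the 75.

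**Figure D2:**
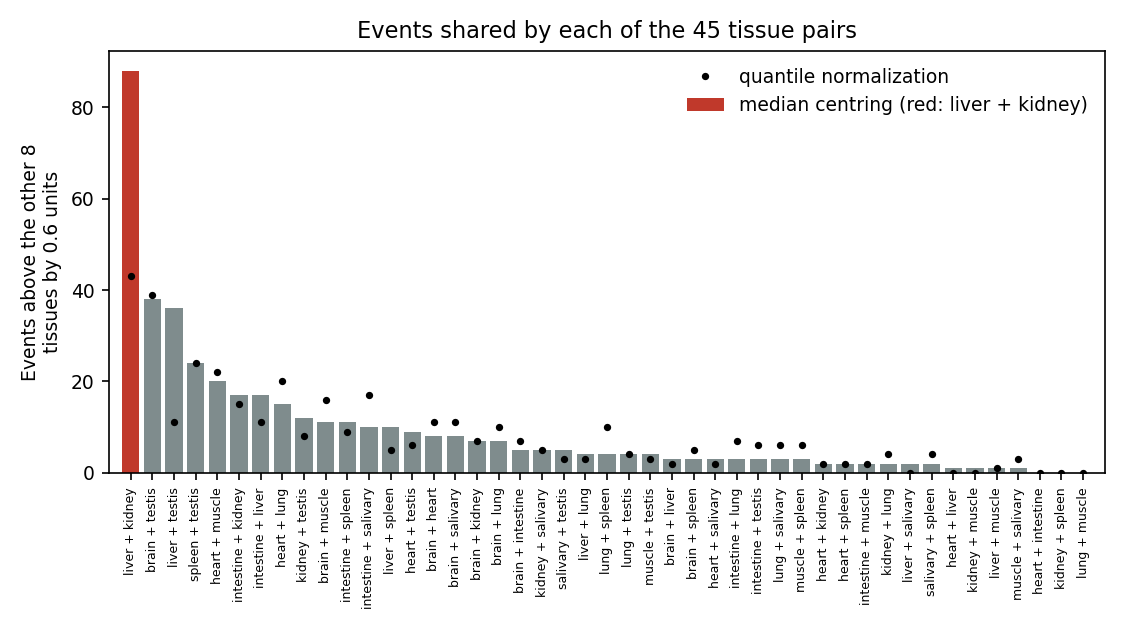
Number of events (vertical axis) whose lower level in a tissue pair exceeds the highest of the other 8 tissues by 0.6 units, for all 45 pairs (horizontal axis). Bars are median-centred arrays, with liver and kidney in red at 88, and points are quantile-normalized arrays, where liver and kidney have 43 events and brain and testis 39.

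The rule used only C1 and C2, and the other 5 probe kinds show whether the rest of the event moved with its flanks. The A probe exceeded the other 8 tissues by 0.6 units in both liver and kidney in 49 of the 75 events, against 2.72% of all events. The inclusion junction C1:A did so in 49 events (2.72% of all events) and A:C2 in 54 (2.91%). The skipping junction C1:C2 did so in 36 (1.82%). The median margins of A, C1:A, A:C2 and C1:C2 were 0.87, 0.77, 0.91 and 0.53 units in the shared events, against -1.001, -1.03, -1.03 and -1.04 over all events. The INT probe passed the margin in 3 of the 75 events, against 0.224% of all events, and had a median margin of -0.58 in the shared events and -0.77 over all. The flanks can also be set against each other. Of 63 events chosen by the rule on C1 alone, 46 had a C2 probe that passed the margin, or 73.0%, against 3.33% of all events. Of 93 chosen on C2 alone, 47 had a C1 probe that passed, or 50.5%, against 2.40%. Probes of an event share the same 10 samples and may share sequence, so these readings are not independent replicates.

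**Figure D3:**
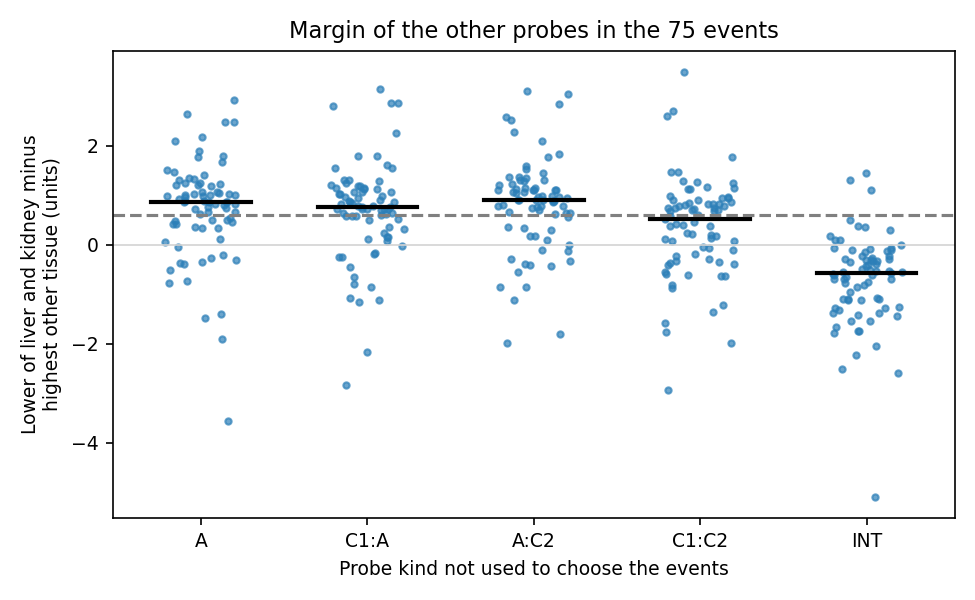
Margin of the lower of liver and kidney over the highest other tissue (vertical axis, units) for the 5 probe kinds that did not choose the events (horizontal axis). Each point is 1 of the 75 events, black bars are medians and the dashed line is 0.6 units. Medians are 0.87 for A, 0.77 for C1:A, 0.91 for A:C2, 0.53 for C1:C2 and -0.58 for INT.

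By which junctions passed the margin, the events fell into 5 groups. In 24 events both inclusion junctions and the skipping junction were high in liver and kidney, against 1.02% of all events. In 18 both inclusion junctions were high and C1:C2 was not (0.896% of all events). In 19 only C1:A or only A:C2 was high among the inclusion junctions (1.79%), and in 6 only C1:C2 was high (0.576%). In the remaining 8 no junction passed, against 95.7% of all events. Without the clause on liver over kidney the liver and kidney pair had 31 of 88 events with all 3 junctions high and 8 with C1:C2 only, and the heart and muscle pair had 5 and 6 of 20. No test of that difference was made.

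Ben3212 and Ben3954 were examples of transcripts that were high in both tissues in all exons and junctions. The level of Ben3212 was 5.19 in liver and 4.83 in kidney, and in the others it had a lowest value of 0.82, a median of 1.08 and a highest of 1.46, in testis. Its A probe read 4.89 in liver and 4.54 in kidney, against at most 2.06 elsewhere. The skipping junction C1:C2 read 3.85 and 3.60 in the same order, against -0.44 to 0.10 in the other tissues. Every exon and junction probe of Ben3212 therefore stood clear of the other tissues, whereas INT did not, at -1.54 in liver and -1.02 in kidney.

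The level of Ben3954 was 4.75 in liver and 4.07 in kidney, against a range of -0.19 to 1.40 and a median of 0.17 in the others, with heart the highest. Its 3 junctions and A had margins from 2.61 for C1:C2 to 2.93 for A. The liver excess over kidney was nearly the same in all 6 exon and junction probes, from 0.61 in A to 0.69 in C1:A. Here INT was high too, at 1.52 in liver and 1.21 in kidney, against -1.41 to -0.24 elsewhere. Ben949, at a level of 2.55 in liver and 3.58 in kidney against -1.60 to -0.70 in the others, had the same form with kidney the higher, and its INT probe also passed, at 0.67 in liver and 1.01 in kidney, against at most -0.45. The remaining event with a high INT probe was Ben2515, and the 3 were all among the 4 events with the largest margins.

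Ben2515 had the largest margin of all and belonged to the group without a high C1:C2. Its level was 2.98 in liver and 2.87 in kidney, and between -1.44 and -0.66 in the others, with a median of -0.88. A:C2 read 3.57 in liver and 3.36 in kidney, against at most 0.31 elsewhere, and C1:A read 2.16 and 1.89, against at most -0.91. C1:C2 read -0.48 in liver and -0.49 in kidney, close to heart at -0.67, and stayed below the 95th percentile of INT probes in all 10 tissues. The skipped form was thus not detectable above dim probes in this event, while the included form was high in liver and kidney alone of the 10 samples. The INT probe read 1.67 in liver and 2.07 in kidney.

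Ben1145 belonged to the same group, and the level of its next tissue, intestine, was above dim signal at 1.71. The inclusion junctions there were not clear of it, since C1:A read 0.84 and A:C2 0.97, against a 95th percentile of INT probes of 0.95. The A probe of Ben1145 read 5.05 in liver and 4.41 in kidney, against 1.92 in intestine. Its C1:C2 probe read 0.86 in liver and 0.34 in kidney, against 0.38 in intestine. Unlike in Ben2515, the liver reading exceeded the liver 95th percentile of INT probes, 0.70. In salivary all 7 probes of Ben1145 are listed at 0, as in 20 of the 31260 combinations of event and tissue, and Ben883 was the only other shared event with such a reading. Ben142 showed the opposite form, with C1:C2 at 4.04 in liver and 3.87 in kidney, against 0.89 to 3.26 in the others, while its A probe read -0.78 in liver and -0.35 in kidney, inside the range of -1.79 to -0.28 elsewhere. Among the 6 events of this form no A probe passed the margin, and in 5 the A margin was below 0. Ben1145, Ben142, Ben883 and the events Ben2232, Ben3022, Ben3352, Ben3376, Ben428, Ben2151 and Ben2153 named below were chosen as examples after their values were seen.

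**Figure D4:**
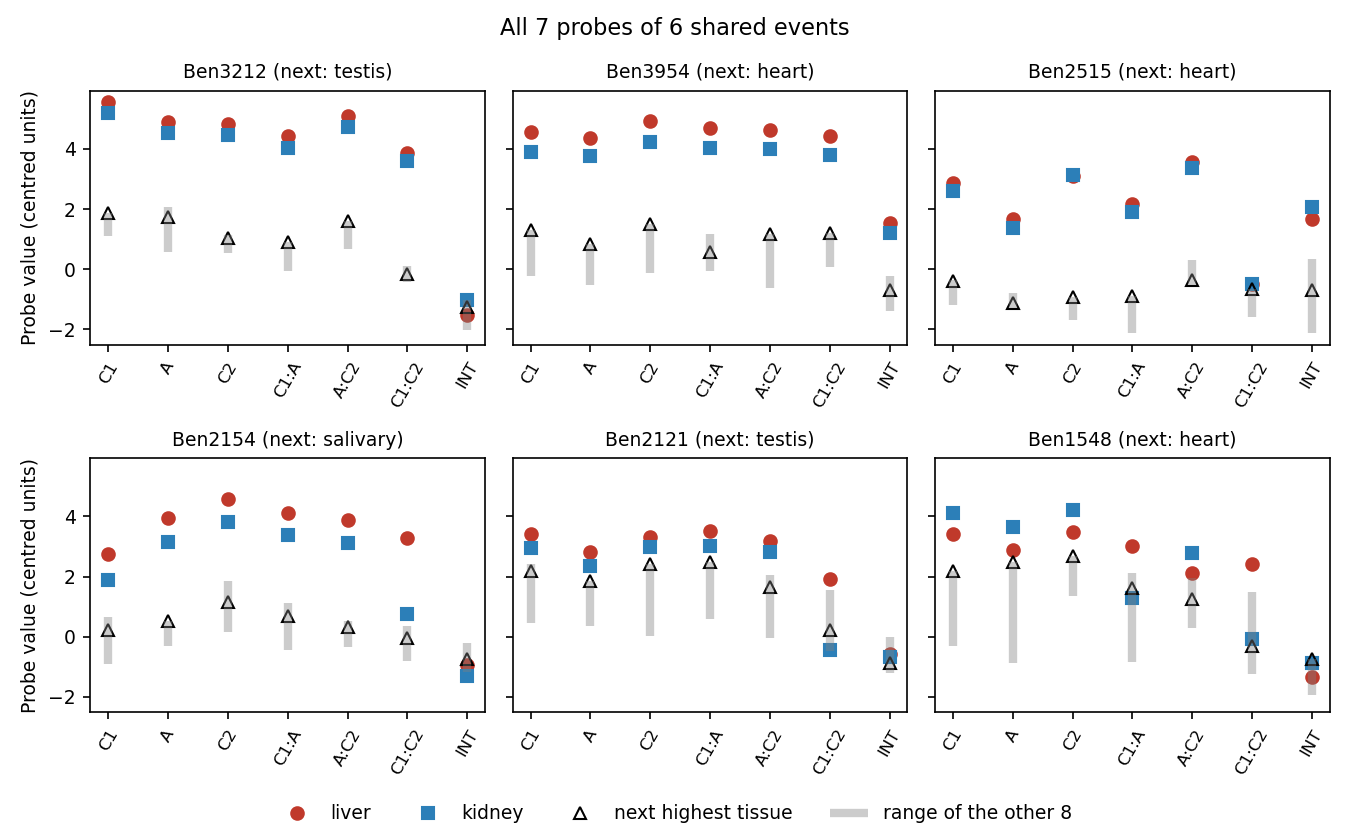
Values of the 7 probes (horizontal axis) in centred units (vertical axis) for 6 shared events, with liver as red circles, kidney as blue squares, the next highest tissue as open triangles and the range of the other 8 tissues as grey bars, 1 sample per tissue. In Ben2154, Ben2121 and Ben1548 the C1:C2 probe is higher in liver than in kidney by 2.53, 2.34 and 2.51 units.

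Exon use was compared through the junction index, in which C1:C2 is subtracted from the average of the inclusion junctions. The index is higher where the exon is more included, but its value depends on the probes, so only its differences between tissues are read. It was read in a tissue where the higher of the inclusion mean and C1:C2 exceeded that tissue's 95th percentile of INT probes. This held in both liver and kidney for 69 of the 75 events, and for 973 of all 3126. A difference was called past 4 robust SDs of all events (scaled median absolute deviations), 1.66 units for liver minus kidney, where the body index, the A probe relative to the level of its flanks, differed with the same sign.

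In most of the shared events exon use in liver and kidney was close. The index difference, liver minus kidney, had a median of 0.07 units over the 69 events, against 0.03 over the 973. It was 0.25 units or less either way in 50 of 69 events (72.5%), against 535 of 973 (55.0%), and 0.5 units or less in 58 (84.1%), against 757 (77.8%). Within 1.0 unit the shares were 62 of 69 (89.9%) and 92.2% of all readable events. By the rule the shared events were also brighter, with median levels of 2.85 in liver and 2.91 in kidney. Over all 3126 events these medians were 0.46 and 0.50. The part of brightness in the closer index was not tested. In the 24 events with all 3 junctions high, the difference ran from -0.25 to 0.38. That narrow range follows in part from the grouping, which asks for the same junctions to be high in both tissues.

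Exon use was called different between liver and kidney in 3 of the 69 events, against 1.75% of all readable events. In 2 of them, Ben1548 and Ben2154, the exon was more skipped in liver (1.44% of all readable events), and in Ben2297 it was more included in liver (0.308%). Ben2154 was the plainest of these in the junction probes. Its liver excess over kidney was 0.88 in C1, 0.77 in A, 0.76 in C2, 0.72 in C1:A and 0.78 in A:C2, but 2.53 in C1:C2, which read 3.29 in liver and 0.76 in kidney. In the other tissues C1:C2 read -0.82 to 0.34. The inclusion junctions were high in both tissues and the skipping junction was high in liver, so the index was lower in liver by 1.78 units, at 0.71 in liver and 2.49 in kidney. It was 0.54 in salivary, the next tissue, where neither arm could be read. The body index differed by only -0.05, and the call has that sign only narrowly.

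Ben1548 had a level of 3.44 in liver and 4.17 in kidney, against 0.52 to 2.44 in the others, with heart the next. Its C1:C2 probe read 2.42 in liver and -0.09 in kidney, against -1.26 to 1.4797 elsewhere. A, C2 and A:C2 were lower in liver by differences of -0.74, -0.74 and -0.66, as the level was, whereas C1:A was higher in liver, at 3.01 against 1.28 in kidney. The index was 0.15 in liver, 2.13 in kidney and 1.74 in heart, so kidney stood nearer to heart than liver did. The inclusion junctions did not move together, and the difference of -1.97 was -0.77 with C1:A alone and -3.17 with A:C2 alone. The body index differed by -0.02.

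Ben2297 was dim, with a level of 1.35 in liver and 1.53 in kidney, against -0.46 to 0.26 in the others. Its A:C2 probe read 0.40 in liver and -1.69 in kidney, and its A probe -0.95 in liver and -1.63 in kidney, while C1:C2 read 1.12 in liver and 1.41 in kidney. The index was higher in liver by 1.76 and the body index by 0.85. Only C1:C2 of these junctions exceeded the 95th percentile of INT probes, so the size of the difference is not exact. When both arms had to exceed that percentile, none of the 3 calls remained.

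Among A and the 3 junctions, C1:C2 departed most often from the flanks between liver and kidney, as it did over all readable events. It was higher in liver than the flanks were by 1 unit or more in 6 of 69 events (8.7%), against 4.62% of readable events. In 0 it was lower by as much, against 3.29%. The 6 were Ben428, Ben1548, Ben2121, Ben2154, Ben2233 and Ben3376. In Ben1548, Ben2121, Ben2154 and Ben3376 the kidney C1:C2 reading was below the kidney 95th percentile of INT probes, 0.78. Their departures are therefore not exact sizes. The inclusion probes departed by this much in fewer events. C1:A was higher in liver in 2 (3.19% of readable events), A:C2 in 2 (2.26%) and A in 3 (1.54%). A departure below the flanks was seen in 1 event for A:C2 (4.93%), in 1 for A (3.29%) and in 0 for C1:A (4.11%).

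Ben2121 passed the threshold by the junction index but not the condition on the body index. Its C1:C2 probe read 1.91 in liver and -0.44 in kidney, against -0.47 to 1.55 in the others, while its other exon and junction probes were higher in liver by 0.31 to 0.50. The index was lower in liver by 1.92 and the body index higher by 0.06. The index was 1.44 in liver, 3.36 in kidney and 1.85 in testis, the next tissue. Ben3376 fell just short, with an index difference of -1.65 and a C1:C2 probe at 1.85 in liver and -0.61 in kidney, against -1.32 to 0.26 elsewhere. Ben4125 had an index difference of 1.27, with the exon more included in liver, and a level of 2.10 in liver and 3.58 in kidney. In that event C1:C2 read 1.24 in liver and 2.86 in kidney, but A:C2 read 0.23 and 0.11, below the 95th percentile of INT probes in both.

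The A probe disagreed with the junctions in a few events. In Ben3352 the A probe read 3.84 in liver and 1.59 in kidney, while C1:A read 3.20 and 3.21 and A:C2 read 3.63 and 3.65. The body index was higher in liver by 2.15 and the junction index by 0.13. Ben3022 had a body index higher in liver by 1.87 and a junction index at -0.10. Such events were not called.

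The next highest tissue was then set against the mean index of liver and kidney. The index could be read in all 3 tissues in 43 of the 75 events, and the threshold was 2.58 units. No event was called, against 0.933% of 857 readable events (0.817% more included and 0.117% more skipped). The difference ran from -0.65 to 1.59 with a median of 0.14, against 0.11 over the 857. It was 0.5 units or less either way in 26 of 43 events (60.5%), against 528 of 857 (61.6%). The exon was more included in liver and kidney than in the next tissue, by any amount, in 34 of 43 events (79.1%), against 517 of 857 (60.3%). With intestine as the next tissue the median difference was 0.14 over 13 events, 11 of them above 0. With heart it was 0.43 over 13 events, again 11 above 0. By the rule, these events were also higher in level in liver and kidney than in the next tissue, and the part of level in this sign was not tested.

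In 25 of the 43 events (58.1%) both differences, between liver and kidney and from the next tissue, were 0.5 units or less. The share of all readable events that met both limits was not counted, so this count has no background beside it. Taken singly, the limits were met by 77.8% and 61.6% of all readable events. In the 17 readable events with all 3 junctions high, the difference from the next tissue ran from -0.55 to 0.57. The grouping favours such a narrow range, since it asks all 3 junctions to exceed the next tissue by 0.6 units or more. In Ben2232 the index differed by 0.09 between liver and kidney and by 0.02 from muscle. Its level was 4.69 in liver and 4.88 in kidney, against 3.84 in muscle. In the 10 readable events with high inclusion junctions and no high C1:C2, the median difference was 0.67 and 9 were above 0, which the grouping favours.

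**Figure D5:**
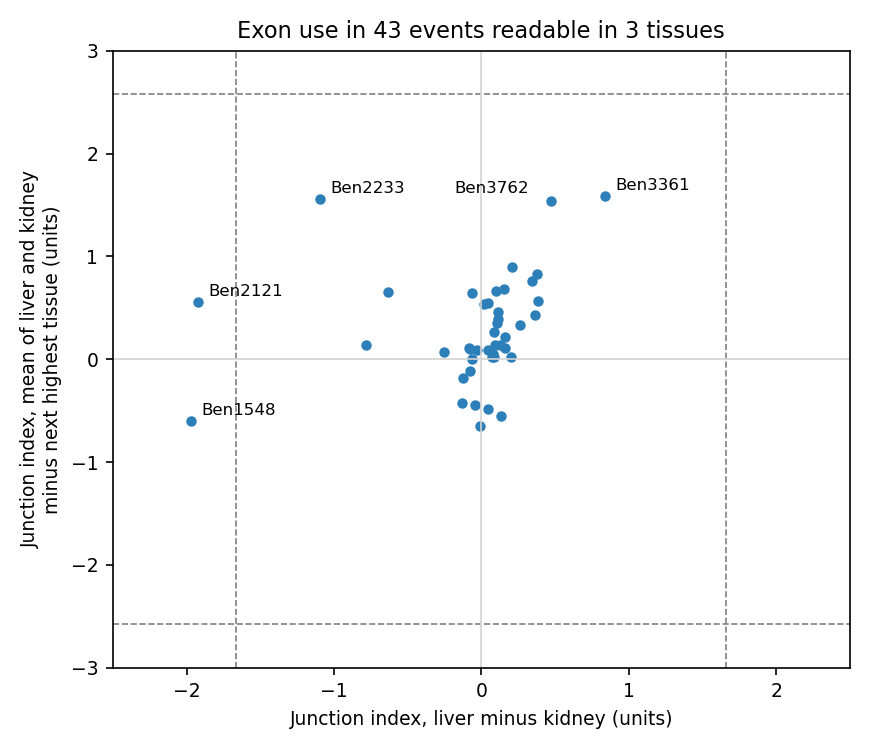
Difference of the junction index between liver and kidney (horizontal axis, units) and between their mean and the next highest tissue (vertical axis, units) for the 43 events readable in all 3 tissues. Dashed lines are the thresholds of 1.66 and 2.58 units. Most points lie near 0 on the horizontal axis, Ben1548 and Ben2121 lie past the left line, and none lies past a horizontal line.

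The largest differences from the next tissue, short of the threshold, were in Ben3361, Ben2233 and Ben3762. In Ben3361, the event with the highest liver level, the index was 1.76 in liver and 0.91 in kidney, against -0.25 in heart. Its C1:C2 probe read 3.78 in liver and 3.67 in kidney, against 4.27 in heart, while A:C2 read 5.35 and 4.32, against 3.43. The skipping junction was thus higher in heart, where the flanks were lower. The body index went the other way, by -0.68: liver and kidney exceeded heart by 1.69 in C2, 0.78 in C1 and 0.56 in A.

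Ben2233 differed from muscle by 1.56, with an index of 1.18 in liver and 2.27 in kidney, against 0.16 in muscle. Its C1:C2 probe read 2.58 in liver and 1.47815 in kidney, against 2.84 in muscle, while A read 4.49 and 4.55, against 3.41. Its body index went the same way, by 0.31. Ben3762 differed from intestine by 1.54, with C1:C2 at 1.24 in liver and 1.77 in kidney, against 1.87 in intestine, and C1 at 3.30 and 3.13, against 1.45. Its body index went the other way, by -0.16.

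In the direction of more skipping, the differences were smaller. Ben3082 stood at -0.65 against salivary, Ben1548 at -0.60 against heart and Ben3212 at -0.55 against testis. The body index of Ben3082 went the other way, by 0.54. Those of Ben1548 and Ben3212 went the same way, by -0.58 and -0.59. In Ben3082 the flanks diverged, since C2 read 3.04 in liver and 3.26 in kidney, against 3.91 in salivary, whereas C1 read 3.13 and 3.50, against 0.69. Ben3082 was 1 of 6 shared events in which a flank had a margin below 0, so that its mean level rested on the other flank.

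Some of the 75 events carry neighbouring numbers, at most 2 apart, and 11 events formed 6 such pairs. In Ben2232 and Ben2233 the levels were 4.69 and 4.08 in liver and 4.88 and 4.33 in kidney, and muscle came next in both, at 3.84 and 3.41. Ben2153 and Ben2154 had levels of 3.12 and 3.68 in liver and 2.47 and 2.86 in kidney, with next tissues of intestine at 0.67 and salivary at 0.69. Ben2151, next to them in number, differed, at 3.61 in liver and 3.43 in kidney with heart at 2.73. Whether neighbouring numbers lie on the same gene is not given in the sources used here, so the 75 events may stand for fewer transcripts.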

How the data were processed

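The authors deposited 1 table with 21882 probe values for each of 10 samples, which are read here as a score, per the values in that deposited table, running from 0 to 8.66 with column medians from 2.04 to 2.19. Neither the labels nor the table state how the authors scanned and normalized the arrays, the base of the scale or the probe sequences. Each array was centred on its median. Margins, indices, robust SDs and thresholds were computed as the results state, with Python 3.11.15, numpy 2.4.6, pandas 2.3.3 and matplotlib 3.10.9. The rule and the calls between liver and kidney were tested on simulated data, without the filter on dim signal. The comparison with the next tissue was not tested in that way. No model or p-value was used, as tissues have no replicates.

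The events, the thresholds and the examples were chosen with earlier results of these data known. Events named were the 5 with the largest margin, the 3 with the largest index difference each way in each comparison, those nearest the margin of 0.6, the 2 with the largest excess of kidney, every called event and the examples stated as chosen later. The planned gene lists were not used, because the table names no genes. The alternatives were other scalings, flanks, margins, comparators, indices, filters and thresholds.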

Additional observations from a re-analysis of the deposited data

How the results depend on the processing

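No paired analysis was possible because tissues have no replicates. The number of shared events, 75, was 40 after quantile normalization (32 of them among the 75), 113 at a margin of 0.4 units, 34 at a margin of 1.0 and 114 without testis among the other tissues. With each of the remaining tissues left out it ran from 75 to 103, and with columns as deposited, C1 or C2 alone or a filter on dim flanks from 63 to 93. Of the 34 events with a margin of 1 unit or more, 29 were kept under quantile normalization, and of the 5 largest all 5. A high A probe was seen in 49 of the 75 events. Under quantile normalization it was seen in 25 of the 40 events the rule then gave, 21 of them among the 49, and at a margin of 1.0 for A in 30 of the 75. Between liver and kidney 3 events were called. The calls numbered 1 with C1:A alone, which was among the 3, and 1 with the body index, which was not. They numbered 5 at 3 robust SDs, with the 3 among them, 0 at 6 robust SDs and 0 with both arms above the INT percentile. With A:C2 alone 3 events were called and under quantile normalization 4, in each case with 2 of the 3 among them. The calls numbered 4, the 3 included, without the condition on the body index, an alternative chosen after seeing the data. No call against the next tissue was made in any alternative run. Fewer or more events follow by construction from stricter or looser limits, and the cause of the shift under quantile normalization was not tested. Dim signal limits the comparison with the next tissue, since 26 events had an index that could be read in liver and kidney but not there.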
